A study of Mus musculus with 2931 samples.

Results

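Sox7, Sox17, Sox18, Erg, Fli1, Ets1, Gata2, Tal1, Foxf1 and Mef2c are transcription factors that build and maintain the endothelium, the cell layer that lines blood and lymph vessels. The 10 genes were taken by symbol from a table of 18072 gene symbols, and every one of them passed the filter on low counts in the comparison of postnatal subtypes. RNA was sequenced from 2931 single endothelial cells of the distal lung of 10 mice. The mice formed 5 groups, each of 1 female and 1 male: a late embryonic day (E18.5), postnatal days 1, 7 and 21 (P1, P7 and P21), all labelled with normal treatment, and P7 labelled with hyperoxia, a raised oxygen level in the breathed air. No strain, genotype, oxygen level or length of exposure was given in the sources used here. Cells were grouped by the deposited subtype labels: 1463 Car4- capillary cells (early and late labels together), 390 proliferative cells, 332 Car4+ capillary cells, 313 embryonic cells, 203 venous cells, 96 arterial I cells, 82 lymphatic cells, 42 arterial II cells and 10 proliferative venous cells. How the labels were made is not given in the sources used here. If they were made from the expression of these cells, a difference between subtypes is not independent of them, and the tests between subtypes below describe the labelled classes. Whether a mouse name stood for 1 animal or for a pool was not stated, so n counts mouse names. In tests between subtypes the p-values rest on the spread of class differences among mouse names. In tests of age and hyperoxia within a class they rest on the spread between mouse names.

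Sox7, Sox17 and Sox18 form the SOXF group of SOX factors, which act in arterial and lymphatic vessel formation. Erg, Fli1 and Ets1 belong to the ETS family, whose binding sites are found in the regulatory regions of nearly all endothelial genes. Gata2 is a zinc-finger factor of blood and endothelial cells, and Tal1 is a basic helix-loop-helix factor that pairs with GATA factors in the SCL complex. Foxf1 is a forkhead factor that lung capillary growth requires, and Mef2c is a MADS-box factor of vessel and muscle development.

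The letters of the genes bear on how their reads can be told apart. Within the SOXF group and between Erg and Fli1 the DNA-binding domain is strongly conserved, and short identical stretches occur in the coding sequence. The longest shared stretch in GENCODE M21 transcripts on GRCm38 is shown for 3 pairs of SOXF genes, for Erg and Fli1, and for Foxf1 and its paralog Foxf2, since a read inside it could not be assigned to either gene by sequence alone.
Sox7 and Sox17: accccaactacaagtaccggcc
Sox7 and Sox18: cccaactacaagtaccggcc
Sox17 and Sox18: gagaagcggcccttcgtggaagaggccga
Erg and Fli1: ggaagagcaagcccaacatgaa
Foxf1 and Foxf2: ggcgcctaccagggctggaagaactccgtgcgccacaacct
These stretches were 22, 20, 29, 22 and 41 bases long, out of coding lengths of 1140 bases for Sox7, 1257 for Sox17, 1131 for Sox18, 1458 for Erg, 1356 for Fli1 and 1134 for Foxf1. Sox17 lies at chr1:4490931-4497354 on the minus strand and shares 804 exon bases with the antisense transcript Gm37587, and Foxf1 lies at chr8:121084386-121088144 on the plus strand and shares 98 exon bases with an antisense miRNA gene, Gm27530. Neither partner is a row of the table, and whether the counting used strand was not given in the sources used here. Fli1 (chr9:32422204-32542861, minus strand) and Ets1 (chr9:32636221-32757820, plus strand) are neighbours, with 93359 bases between them.

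RefSeq promoter entries on GRCm38.p6 matched 4 of the 10 genes, with 10 entries in all. In the 250 bases before each start, 5 motifs of the families of the listed factors were searched on both strands. The ETS motif was taken as CCGGAA, or with a different base at its second place as CAGGAA. The GATA motif was searched as AGATAA, and the E-box of helix-loop-helix factors as CAGNTG. The SOX motif was searched as ACAATG, and the forkhead (FOX) motif as TGTTTAC. No motif contains another. Over 32851 promoter entries of the same length, 35.1% held the ETS letters, 9.99% the GATA letters, 44.8% the E-box letters, 10.7% the SOX letters and 3.17% the FOX letters. An Erg entry held 4 of the 5 motifs, in the order E-box, SOX, GATA and ETS, and a Tal1 entry held the GATA letters. Both are printed 5′ to 3′ on the strand of the gene, with each motif in capitals: Erg as the entry with the most motifs, and Tal1 because it holds the motif of its GATA partners. They cover chr16:95459349-95459598 on the minus strand for Erg and chr4:115056176-115056425 on the plus strand for Tal1.
Erg promoter: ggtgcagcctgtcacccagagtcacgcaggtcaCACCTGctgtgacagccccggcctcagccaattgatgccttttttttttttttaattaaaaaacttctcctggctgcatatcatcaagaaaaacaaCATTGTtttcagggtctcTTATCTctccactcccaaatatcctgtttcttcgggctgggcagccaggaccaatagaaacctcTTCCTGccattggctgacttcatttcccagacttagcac
Tal1 promoter: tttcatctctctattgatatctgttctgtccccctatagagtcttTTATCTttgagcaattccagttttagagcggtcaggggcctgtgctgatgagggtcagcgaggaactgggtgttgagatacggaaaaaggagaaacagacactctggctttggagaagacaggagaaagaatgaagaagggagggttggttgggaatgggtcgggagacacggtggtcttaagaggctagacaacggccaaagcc
A Mef2c entry held the E-box letters, and the remaining 7 entries held none of the 5 motifs. No binding was measured in these cells, so the matches describe letters only.

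The mice had between 56564316 and 331392982 counted reads in 212 to 359 cells. A cell had a median of 621406 reads, with a range from 42095 to 2967985. Levels are given as CPM, the reads of a gene per 1000000 reads of the summed cells of a class in a mouse, and a class was used in a mouse from 8 cells upward. The labels were checked against summed marker lists. The arterial list had a median of 8047 CPM in arterial I sums, the venous list 3346 in venous sums, the lymphatic list 9847 in lymphatic sums, the proliferation list 4758 in proliferative sums and the Car4+ list 11255 in Car4+ sums, each the highest median of its list among the classes. The Car4- list did not single out its class, with medians of 5268 CPM in Car4-, 5989 in arterial I and 5542 in venous sums. Single markers varied: Dkk2 of the arterial list had a median of 0 CPM in arterial I sums, and Slc6a2 of the venous list ran from 0.112 to 1815 CPM in venous sums. All 5 general endothelial markers were present in every class, with a summed median from 4122 CPM in venous to 10842 CPM in Car4+ sums. Runs were not balanced over the groups. Here 1 run held the female E18.5, P1 and P21 mice, and another held the male E18.5, P7, P21 and hyperoxia mice. Comparisons of classes within a mouse thus share a run more often than comparisons of ages. The cell names also carry a sort gate: 2694 cells were of the CD31 gate, 224 of the mesench gate and 13 of the CD45 gate. Class sums pooled the gates.

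The genes were set beside each other per kilobase of exon, with the exons of all transcripts of a gene joined. On this scale Foxf1 was the highest of the 10 genes in postnatal Car4- capillaries. Its mean was 368 CPM per kb over 8 mice. Sox18 followed at 169, Sox7 at 80.6, Sox17 at 66.2, Ets1 at 61.2, Gata2 at 54.9, Fli1 at 53.3, Erg at 32.1, Mef2c at 11.3 and Tal1 at 7.22 CPM per kb. Mef2c has the longest summed exons, 15715 bases, and its place depends on this length: without it, Mef2c had a mean of 177 CPM against 111 for Erg. Tal1 was low on either scale. With each cell thinned to 50000 reads, the mean share of Car4- cells with a read was 86.5% for Foxf1, 82.5% for Ets1, 74.6% for Sox7 and 19.7% for Tal1. The order from Sox7 to Fli1 is not resolved by these mice: Sox7 was 80.6 ± 40.8 and Fli1 53.3 ± 19.1 CPM per kb (SD, n = 8). The ranges of Foxf1 (157 to 506 CPM per kb) and Sox18 (94.9 to 282) overlapped as well. Per kilobase of these joined exons Mef2c (9.48 to 13.9) lay below every gene but Tal1 (5.32 to 9.29).

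**Figure D1:**
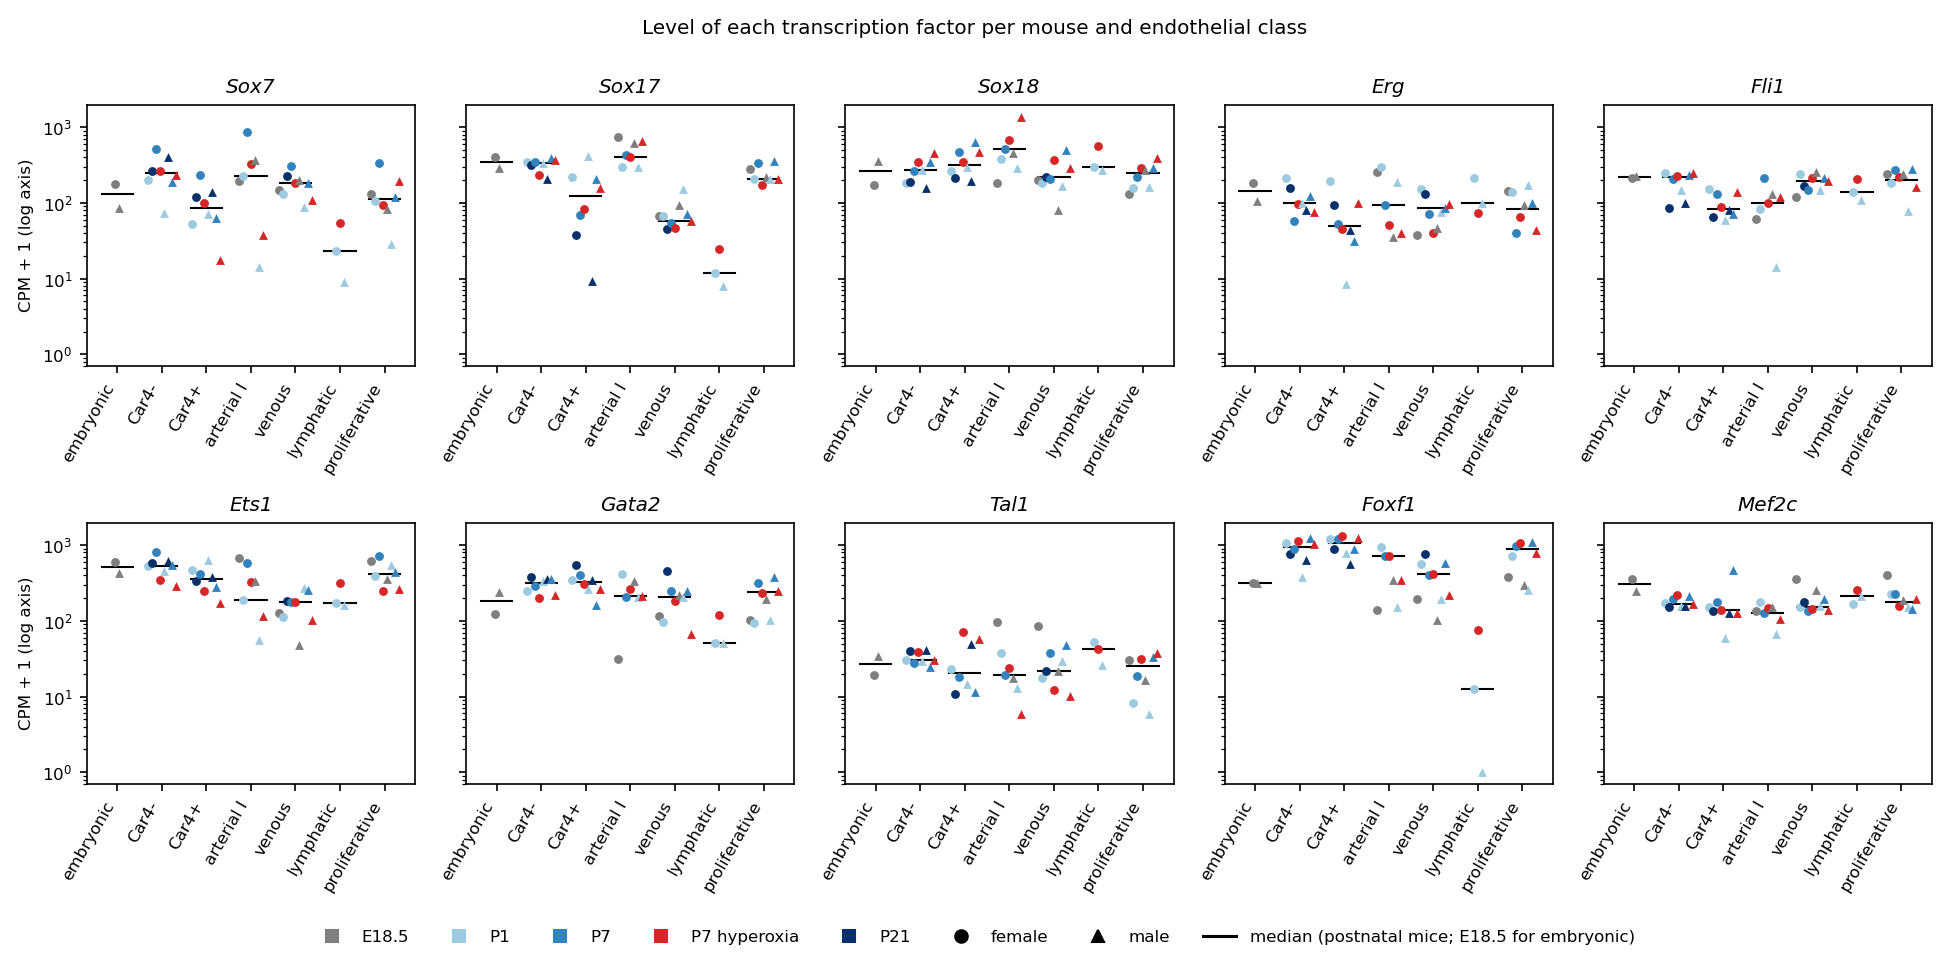
Level of each of the 10 genes as CPM + 1 on a log axis, by subtype class, with 1 point per mouse. Class sums of at least 8 cells are shown, without the E18.5 sums of Car4- and lymphatic cells. A line marks the median of postnatal mice, or of E18.5 mice for embryonic cells. Foxf1 and Sox17 fall in lymphatic cells to levels between 0 and 75.2 CPM and between 7.05 and 23.8 CPM in postnatal mice, while Sox18, Erg and Mef2c are present there.

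The postnatal subtypes were compared in 6 contrasts in a model that holds a term for each mouse, so that classes were compared within mice. Over the 60 tests of the 10 genes in these comparisons, edgeR's quasi-likelihood test called 11 at an adjusted p under 0.05, 18.3% against 3.65% of all tests of all genes. Sox17 and Sox18 were each called in 3 comparisons, and Sox7, Fli1, Ets1, Gata2 and Foxf1 in 1 each. Erg, Tal1 and Mef2c were called in none. By comparison, 1 of the 10 genes was called for arterial I against Car4- cells (background 1.92% of genes), 1 for Car4+ against Car4- cells (5.95%), 4 for lymphatic against Car4- cells (5.58%), 0 for proliferative against Car4- cells (1.3%), 2 for venous against Car4- cells (3.09%) and 3 for arterial I against venous cells (4.05%). The median log2 fold change of all genes lay below 0 in each of them, at -0.51, -0.25, -0.15, -0.22, -0.17 and -0.31 in the same order, and the median of the 10 genes was -0.31, -0.11, -0.80, -0.24, -0.30 and 0.35. With RLE normalization the median of all genes moved from -0.51 to -0.39 for arterial I cells and from -0.15 to 0.01 for lymphatic cells.

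**Figure D2:**
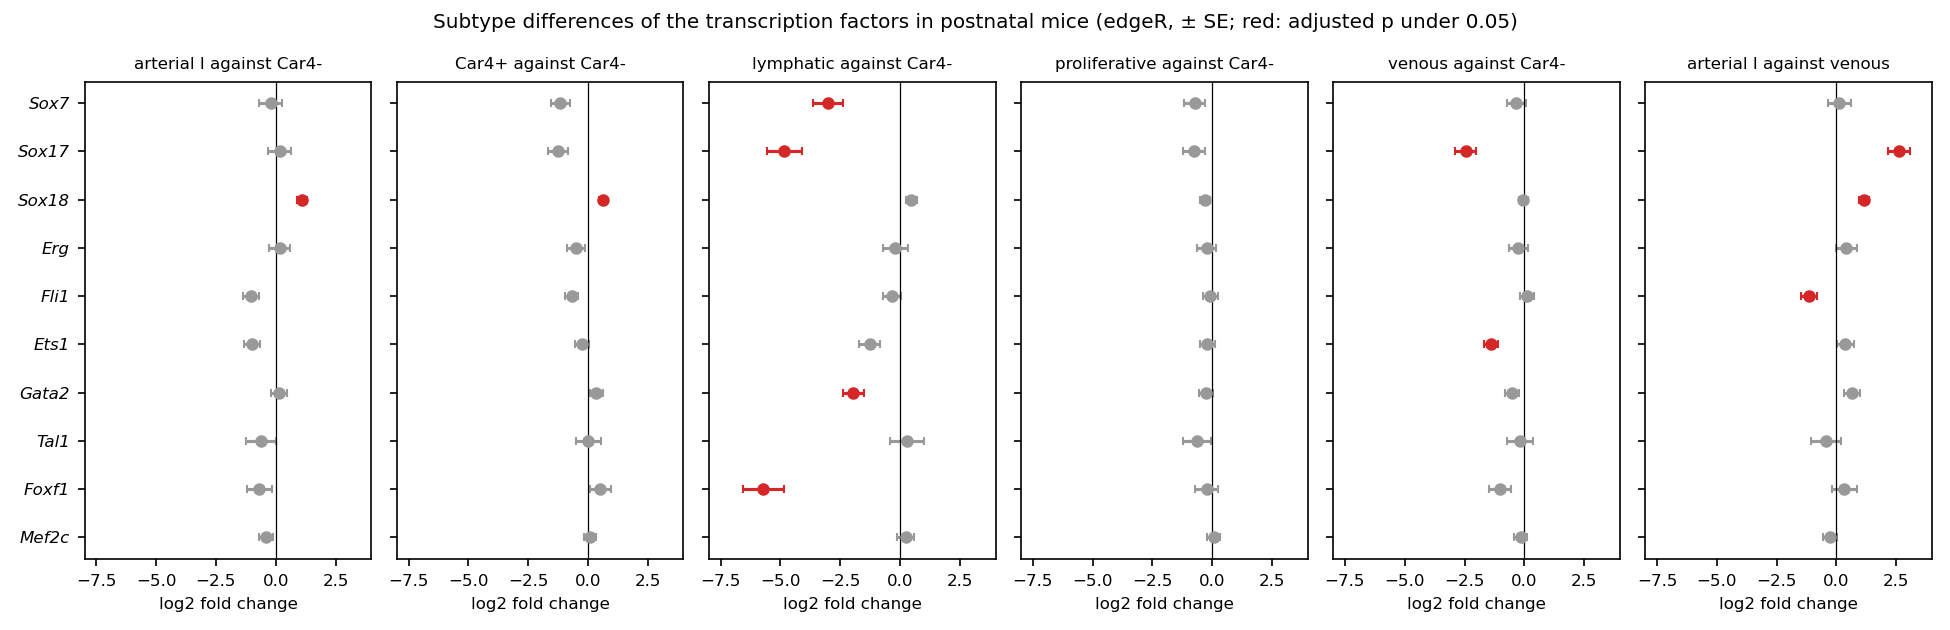
Log2 fold change of the 10 genes with its standard error in 6 comparisons of postnatal subtypes, with genes called at an adjusted p under 0.05 in red. The called differences run from -5.72 for Foxf1 in lymphatic cells to 2.61 for Sox17 in arterial I against venous cells.

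Sox17, the SOXF gene best known as an arterial factor, was higher in arterial I and Car4- capillary cells than in venous and lymphatic cells, while Car4+ capillaries overlapped with all of these. In arterial I cells it was 299 and 293 CPM in the P1 female and male mice, 426 in the P7 female mouse, and 403 and 664 in the female and male hyperoxia mice. In venous cells of 7 postnatal mice it ranged from 44.0 to 151 CPM, with a median of 56.3. The groups did not overlap, and Sox17 was higher in arterial I cells in 5 of 5 mice with both classes. The log2 fold change of arterial I against venous cells was 2.61 (SE 0.47, edgeR adjusted p = 9.50e-04). It kept its call in 17 of 18 alternatives, and was 2.11 with an adjusted p of 0.098 in the normal-air mice alone.

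Car4- capillaries held Sox17 at 203 to 388 CPM, with a median of 338, so they did not overlap with the venous range. The venous level was lower in 7 of 7 mice, and the difference of -2.45 (SE 0.44, edgeR adjusted p = 9.36e-04) held its call in 18 of 18 alternatives. Arterial I and Car4- cells overlapped in Sox17, with a log2 fold change of 0.16 (SE 0.48, edgeR adjusted p = 0.909). In lymphatic cells Sox17 was 10.8 CPM in the P1 female, 7.05 in the P1 male and 23.8 in the hyperoxia female, below every Car4- sum. There the log2 fold change was -4.84 (SE 0.73, edgeR adjusted p = 3.23e-05), again called in 18 of 18 alternatives. Some of these leave out a mouse without a lymphatic sum and so remove none of the lymphatic values.

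Car4+ capillaries were the class in which Sox17 varied most between mice. The lowest sum was 8.21 CPM, the median 121 and the highest 418, and Sox17 was lower than in Car4- cells in 7 of 8 mice. The lowest sums were those of the P21 mice, 36.3 and 8.21 CPM in the female and the male, which lay below every venous sum, and the male one lay within the lymphatic range. These P21 sums pooled CD31-gate and mesench-gate cells, and the part of the gate was not tested. The fitted difference was -1.24 on the log2 scale (SE 0.41, edgeR adjusted p = 0.072), so it did not pass the threshold, and 6 of 18 alternatives called it.

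Sox18, the SOXF gene whose mutation impairs lymphatic and blood vessels in mice, had its highest levels in arterial I cells. They were 376 and 289 CPM in the P1 female and male mice, 513 in the P7 female mouse, and 686 and 1360 in the female and male hyperoxia mice. Car4- cells ranged from 154 to 457 CPM with a median of 267, and venous cells from 167 to 504 with a median of 216. The ranges overlapped, but within mice the arterial I level was higher in 5 of 5 against either class. The log2 fold change was 1.11 against Car4- cells (SE 0.21, edgeR adjusted p = 0.00451) and 1.16 against venous cells (SE 0.22, edgeR adjusted p = 0.0014). The call against Car4- cells was lost without the male hyperoxia mouse, which had the highest arterial level (0.89, adjusted p = 0.0671). In the normal-air mice alone neither call held, with 0.82 (adjusted p = 0.211) and 0.86 (adjusted p = 0.141).

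Sox18 was also higher in Car4+ than in Car4- capillaries, with 195 to 627 CPM and a median of 318 in 8 mice, and it was higher in 7 of 8 mice. Its log2 fold change was 0.64 (SE 0.18, edgeR adjusted p = 0.0299). This call is unstable: it held in 6 of 18 alternatives, and was lost with limma (0.34, adjusted p = 0.295), with thinned cells (0.44, adjusted p = 0.175) and without any 1 of 6 mice, namely both P7 mice in normal air, both P21 mice, the P1 female mouse and the female hyperoxia mouse. Without them the value ran from 0.46 without the P7 male mouse to 0.63 without the P21 female mouse, and the adjusted p from 0.06 to 0.203. In lymphatic cells Sox18 was 297, 267 and 565 CPM, and its difference from Car4- cells was 0.48 (SE 0.25, edgeR adjusted p = 0.355).

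Sox7, the third SOXF gene, fell in lymphatic cells. There it was 22.1 and 7.96 CPM in the P1 mice (female, male) and 53.5 CPM under hyperoxia in the female, against 72.9 to 511 CPM with a median of 245 in Car4- cells of 8 mice. The ranges did not overlap, and the log2 fold change was -3.01 (SE 0.64, edgeR adjusted p = 0.00269, called in 18 of 18 alternatives). In Car4+ capillaries Sox7 was below Car4- cells in 8 of 8 mice, with 16.7 to 236 CPM and a median of 84.8, but the log2 fold change of -1.15 (SE 0.39) had an edgeR adjusted p of 0.0823 and was called in 6 of 18 alternatives. Arterial I sums of Sox7 ranged from 13.1 CPM in the P1 male mouse to 853 CPM in the P7 female mouse, a wider span than in any other class.

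**Figure D3:**
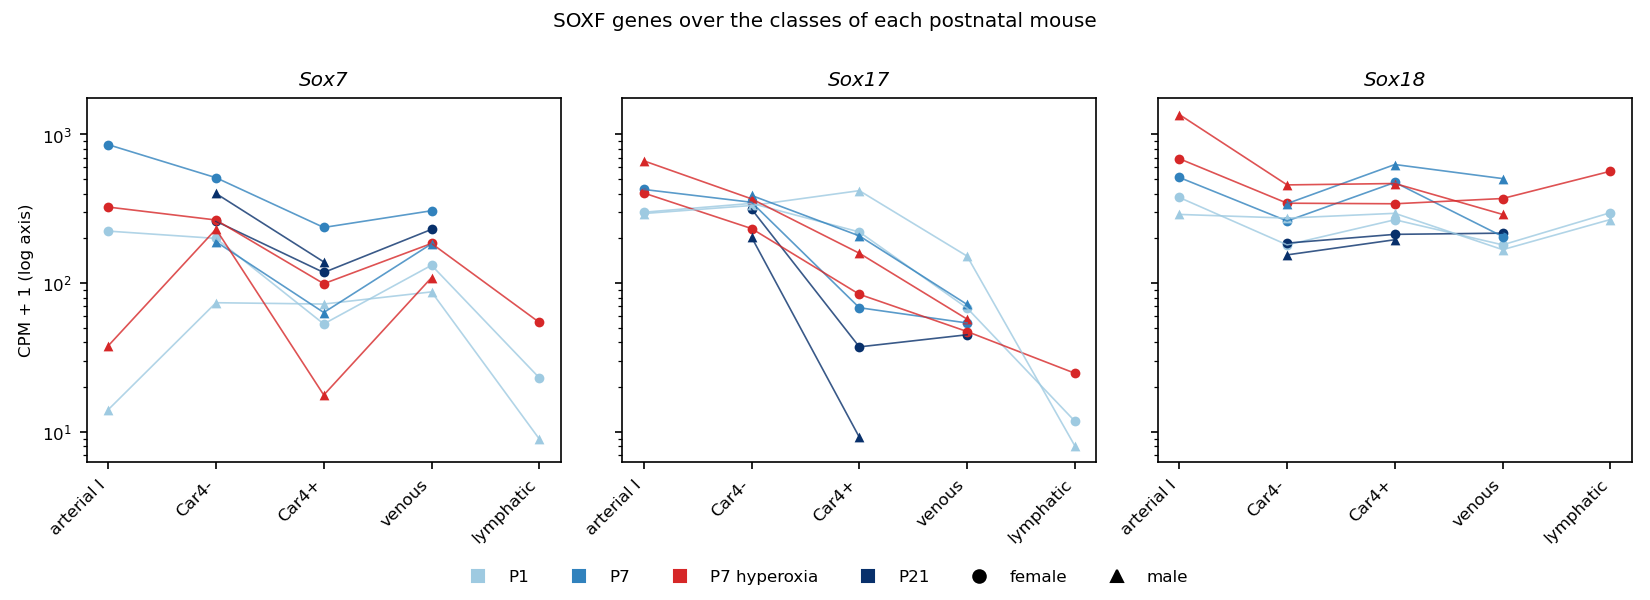
Level of Sox7, Sox17 and Sox18 as CPM + 1 on a log axis in each postnatal mouse, with points of the same mouse joined over the classes. Sox17 drops from arterial I to venous cells in 5 of 5 mice and Sox18 does so too, while the lines of Sox7 cross.

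Cells with reads of all 3 SOXF genes were counted after each cell was thinned to 50000 reads. Their share had a median of 61.5% in arterial I and 42.2% in proliferative cells over the mice with at least 8 cells, E18.5 included. It was 40.9% in Car4-, 31.2% in venous, 30.7% in embryonic, 14.6% in Car4+ and 3.57% in lymphatic cells. In postnatal Car4- cells the mean share with a read was 74.6% for Sox7, 73.8% for Sox17 and 68.7% for Sox18. Whether the genes occur together more often than such single shares give was not tested. The number of genes found per cell differed too: its median over mice was 2227 in Car4-, 2480 in Car4+, 2680 in arterial I and 3812 in lymphatic cells, and its part in these shares was not tested. The classes hold different sets of mice, and the order of the shares was not tested. Within postnatal mice the arterial I share was above the Car4- share in 4 of 5. In the P1 male mouse the order was reversed, with 22.2% in arterial I, 37.7% in Car4- and 46% in venous cells. Arterial I shares ran from 22.2 to 93.8%.

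Ets1, the founding member of the ETS family, was lower in venous cells than in Car4- capillaries. In venous cells of 7 mice it ranged from 101 to 274 CPM, with a median of 178, and in Car4- cells of 8 mice from 283 to 804, with a median of 536. The groups did not overlap, and the venous level was lower in 7 of 7 mice. Its log2 fold change was -1.38 (SE 0.30, edgeR adjusted p = 0.00747). It was called in 16 of 18 alternatives and was lost without the P1 female mouse (-1.29, adjusted p = 0.0531) and in the normal-air mice alone (-1.50, adjusted p = 0.067). Arterial I cells were below Car4- cells in 5 of 5 mice, but the difference of -0.99 (SE 0.35) had an edgeR adjusted p of 0.125, and in lymphatic cells the difference of -1.27 (SE 0.43) had an edgeR adjusted p of 0.0853.

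Fli1, an ETS factor that shares its DNA-binding domain type with Erg, was lower in arterial I than in venous cells at the edge of the threshold. The arterial I sums were 82.2 and 13.1 CPM in the P1 female and male mice, 211 in the P7 female mouse, and 99.0 and 118 in the female and male hyperoxia mice. Venous sums of 7 mice ranged from 145 to 237 CPM. The P7 female mouse lay inside the venous range, and Fli1 was lower in arterial I cells in 4 of 5 mice. Its log2 fold change was -1.16 (SE 0.34, edgeR adjusted p = 0.0482). The call held in 7 of 18 alternatives and ended with RLE normalization (adjusted p = 0.0528), with at least 15 cells per sum (-0.69, adjusted p = 0.287) and with both arterial labels together (-0.56, adjusted p = 0.246). It also ended without any 1 of 5 mice, namely both P1 mice, the P21 female mouse and both hyperoxia mice, with values from -0.84 to -1.26. Fli1 was below Car4- cells in 8 of 8 mice in Car4+ capillaries, with a log2 fold change of -0.67 (SE 0.27, edgeR adjusted p = 0.155).

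Erg, the ETS factor most often used as an endothelial marker, passed the test in none of the 6 comparisons. Its log2 fold changes ran from -0.50 in Car4+ against Car4- cells (SE 0.37, edgeR adjusted p = 0.557) to 0.41 in arterial I against venous cells (SE 0.44, edgeR adjusted p = 0.685), and it was present at 72.7 to 212 CPM in lymphatic cells. Car4- sums of Erg ranged from 55.9 to 210 CPM. These standard errors leave room for differences close to 1 on the log2 scale, so the tests do not show equal levels.

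Of the ETS family list of 15 genes, which was compiled with earlier results of these data known, 14 were tested in the postnatal comparisons. Elk3, an ETS repressor, fell in Car4+ against Car4- cells (log2 fold change -0.99, SE 0.29, edgeR adjusted p = 0.0383), and Ets2, the closest relative of Ets1, fell in venous against Car4- cells (-1.43, SE 0.35, edgeR adjusted p = 0.0166). That is 1 of 14 in each of these comparisons, against 5.95% and 3.09% of all genes, and no listed ETS gene was called in the other 4.

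Gata2 was lower in lymphatic cells. There it was 49.7 and 49.3 CPM in the P1 mice and 117 CPM in the hyperoxia female, against 199 to 379 CPM with a median of 310 in Car4- cells of 8 mice. The groups did not overlap, with a log2 fold change of -1.95 (SE 0.43, edgeR adjusted p = 0.00358). The call held in 17 of 18 alternatives and was lost without the P1 male mouse (-1.66, adjusted p = 0.0619). In the blood vessel classes the differences of Gata2 from Car4- cells lay between -0.51 in venous cells (SE 0.29, edgeR adjusted p = 0.502) and 0.36 in Car4+ cells (SE 0.27, edgeR adjusted p = 0.576).

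Tal1, the partner of GATA factors, was the lowest of the 10 genes in Car4- cells and was called in no comparison. Its sums were 23.3 to 40.7 CPM in Car4- cells and 51.7, 25.4 and 41.6 CPM in lymphatic cells, so the groups overlapped. Its standard errors, 0.52 to 0.71 on the log2 scale, were large beside its differences. A list of 12 genes held partners in the SCL complex, Runx1 and other GATA factors, and 11 of them were tested. The GATA factors Gata3 and Gata6 were lower in both Car4+ and lymphatic cells than in Car4- cells. That is 2 of 11 in each comparison, against 5.95% and 5.58% of all genes. Gata3 had a median of 120 CPM in Car4- cells, 0.985 in Car4+ cells and 0.0648 in lymphatic cells, and Gata6 had 23.7, 0.0373 and 0.27 CPM (edgeR adjusted p from 3.66e-04 to 0.0263).

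Foxf1 was close to absent from lymphatic cells and high in every blood capillary class. In lymphatic cells it was 11.7 CPM in the P1 female, 0 in the P1 male and 75.2 in the hyperoxia female. In Car4- cells it ranged from 380 to 1222 CPM with a median of 956, and in Car4+ cells from 555 to 1303 with a median of 1050. No lymphatic sum came near the capillary sums. Lymphatic against Car4- cells had a log2 fold change of -5.72 (SE 0.86, edgeR adjusted p = 3.68e-05), called in 18 of 18 alternatives. With cells thinned to 50000 reads, 1 of 26 lymphatic cells of the P1 female mouse had a Foxf1 read (3.85%, 95% exact interval 0.0973 to 19.6%), 1 of 14 of the female hyperoxia mouse (7.14%, 0.181 to 33.9%) and 0 of 13 of the P1 male mouse (0%, 0 to 24.7%), where a floor of 3 cells would be 23.1%. Intervals and floor cover counting error only. Thus 2 cells held the Foxf1 reads of the thinned lymphatic cells.

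Foxf1 was 447 ± 206 CPM in venous cells (SD, n = 7) and 571 ± 319 CPM in arterial I cells (SD, n = 5). The venous level was below the Car4- level in 6 of 7 mice, with a log2 fold change of -1.02 (SE 0.47) and an edgeR adjusted p of 0.333, so that it did not pass the threshold, although 4 of 18 alternatives called it. Arterial I cells were below Car4- cells in 5 of 5 mice (-0.69, SE 0.53, edgeR adjusted p = 0.539).

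Proliferation markers were higher in the lymphatic cells, in which 4 genes were called. The summed level of the 4 proliferation markers was 631 to 1013 CPM in 4 lymphatic sums (E18.5 included) and 31.8 to 165 CPM in 9 Car4- sums. For the 5 leukocyte markers the sum was 12.2 to 171 CPM against 0.629 to 32.6 CPM, so the ranges overlapped. Laptm5 had a median of 19.3 against 2.04 CPM, while the medians of Ptprc, Cd52, Lyz2 and Tyrobp were lower in lymphatic sums. All of these markers are in the table. Their part in the lymphatic differences was not tested. In proliferative cells the proliferation markers summed to 3302 to 6235 CPM. There Sox7 and Sox17 were below Car4- cells in 6 of 6 mice, Foxf1 in 5 of 6 and Gata2 in 2 of 6, and none of these was called (log2 fold changes -0.73, -0.75, -0.23 and -0.25).

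Mef2c was called in no comparison. Its Car4- sums ranged from 149 to 218 CPM, with a mean of 177 ± 26.9 CPM (SD, n = 8), and its venous sums from 135 to 191. In lymphatic cells it was 168, 214 and 253 CPM, which overlaps the Car4- range. Its log2 fold changes against Car4- cells lay between -0.41 in arterial I cells (SE 0.31, edgeR adjusted p = 0.539) and 0.24 in lymphatic cells (SE 0.36, edgeR adjusted p = 0.879).

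All 14 listed relatives of the SOX, FOX and MEF2 genes were tested. In arterial I against Car4- cells 0 of them changed, against 1.92% of all genes. In Car4+ capillaries, where 5.95% of all genes were called, 2 of the 14 fell, Foxp1 (log2 fold change -2.05, SE 0.19, edgeR adjusted p = 1.01e-08) and Foxo1 (-2.25, SE 0.47, edgeR adjusted p = 0.0025). In venous cells, against 3.09% of all genes, 3 rose: Foxc1, at a median of 35.2 CPM against 0.201 in Car4- cells, Foxc2, at 5.58 against 0.0212 CPM, and Foxp1, by 0.74 (SE 0.19, edgeR adjusted p = 0.0268). In lymphatic cells, against 5.58% of all genes, 2 rose and 3 fell, with Foxc2 at a median of 31.5 CPM, Foxc1 at 23.7 CPM, and Sox13 at a log2 fold change of -2.38 (SE 0.46, edgeR adjusted p = 9.00e-04). In proliferative cells 1 of the 14 changed, against 1.3% of all genes: Foxm1, a factor of the dividing cell, rose from a median of 2.00 to 86.6 CPM, a log2 fold change of 5.66 (SE 1.31, edgeR adjusted p = 0.0177). Foxc1 was highest in venous cells and lower in arterial I cells, where its median was 0 CPM. In arterial I against venous cells 1 relative was higher and 2 were lower, against 4.05% of all genes.

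Other regulators of endothelial identity also differed between arterial and venous cells. Of 14 listed genes, 13 were tested. In arterial I against venous cells 2 were higher and 1 lower: Hey1, a Notch target, had a median of 687 against 2.02 CPM, Hey2, another Notch target, reached at most 9.79 against 0.142 CPM, and Nr2f2, which specifies veins, had a median of 0 against 432 CPM. In lymphatic against Car4- cells 2 rose and 4 fell, with Nr2f2 at 591 against 49.2 CPM and Prox1 at 680 against 0.0609 CPM, and Epas1, a hypoxia-inducible factor, with a log2 fold change of -5.64 (SE 0.47, edgeR adjusted p = 8.79e-10). In Car4+ cells 2 rose and 1 fell, with Tbx2 at a median of 487 against 42.9 CPM and Hey1 at 0.527 against 150 CPM. In venous cells 1 rose and 4 fell, and in arterial I against Car4- cells 2 fell. Of all genes, 4.05% were called in arterial I against venous cells. Against Car4- cells, the shares of all genes were 5.58% in lymphatic, 5.95% in Car4+, 3.09% in venous and 1.92% in arterial I cells. Nr2f2, Prox1 and Tbx2 are also on the marker lists that the labels were checked with.

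Textbook endothelial targets of these families were tested as 20 genes. Lymphatic cells had 9 of the 20 lower and 0 higher than Car4- cells, with Icam2 (log2 fold change -1.93), Emcn (-2.59) and Esam (-4.92) among those with the smallest adjusted p (6.03e-08, 2.19e-05 and 1.22e-04 by edgeR). Their median was -1.20, against -0.15 for all genes. Car4+ cells had 5 higher and 6 lower, with Kdr, a receptor for VEGF, higher by 2.28 (SE 0.21, edgeR adjusted p = 1.09e-08) and Vwf at a median of 0.0561 against 68.7 CPM. Venous cells had 1 higher and 5 lower than Car4- cells, and arterial I cells had 5 higher and 1 lower than venous cells, with Dll4, a Notch ligand, at a median of 402 against 1.55 CPM and Efnb2 higher by 3.23 (SE 0.43, edgeR adjusted p = 1.69e-05). Arterial I cells had 3 higher and 1 lower than Car4- cells, and proliferative cells had 1 lower. Against Car4- cells, the shares of all genes called were 5.58% in lymphatic, 5.95% in Car4+ and 3.09% in venous cells. They were 1.92% in arterial I and 1.3% in proliferative cells, and 4.05% in arterial I against venous cells. Some of these genes, such as Vwf and Dll4, are known markers of vessel types. Pecam1, Cdh5, Kdr, Tie1, Cldn5, Plvap and Vwf are also on the marker lists that the labels were checked with.

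At E18.5 the order of Sox17 levels was arterial I, embryonic, venous, without a call. The female and male mice had 747 and 620 CPM of Sox17 in arterial I cells, 406 and 288 in embryonic cells and 65.5 and 93.1 in venous cells, with no overlap between the classes. The log2 fold change against embryonic cells was 1.14 for arterial I (SE 0.38, edgeR adjusted p = 0.527) and -1.95 for venous cells (SE 0.40, edgeR adjusted p = 0.194). Ets1 was 124 and 46.3 CPM in venous cells against 606 and 424 in embryonic cells (-2.57, SE 0.39, edgeR adjusted p = 0.0744), and DESeq2 called this difference (-2.39, adjusted p = 0.00812). Over the 30 tests of the 10 genes at E18.5, edgeR called 0, DESeq2 1 and limma 0, and 3 had an unadjusted edgeR p under 0.05. The background was 0.0151% of genes for arterial I, 0% for proliferative and 0.158% for venous cells, and the model rested on 2 mice.

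Foxf1 had a lower level at E18.5 than in most mice after birth. It was 313 and 316 CPM in the embryonic cells of the female and male mice, and 1062 and 380 CPM in Car4- cells of the P1 female and male mice. The P1 male mouse lay close to the embryonic level. The female P1 and E18.5 mice shared a run, and among their CD31-gate cells P1 was above E18.5 in 4 of 4 comparisons: 1084 against 313 CPM for Car4- against embryonic cells, 711 against 373 for proliferative cells, 564 against 194 for venous cells and 944 against 137 for arterial I cells. These are 1 pair of mice. The male mice, from different runs, did not all go that way: from E18.5 to P1 Foxf1 went from 343 to 151 CPM in arterial I cells, from 299 to 258 in proliferative cells and from 101 to 191 in venous cells. The log2 fold change of P1 Car4- against E18.5 embryonic cells was 1.21 (SE 0.42, edgeR adjusted p = 0.372). Class label and age change together in this comparison, so they cannot be told apart for any gene named from it. Mef2c went the other way, from 358 and 245 CPM in embryonic cells to 170 and 154 in P1 Car4- cells, with no overlap (-0.81, SE 0.36, edgeR adjusted p = 0.511). None of the 10 genes was called by edgeR, where 0.494% of all genes were, DESeq2 and limma called 0 too, and 2 genes had an unadjusted edgeR p under 0.05. Epas1, from the list of other regulators, rose in the same comparison (2.94, SE 0.41, edgeR adjusted p = 0.00347).

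**Figure D4:**
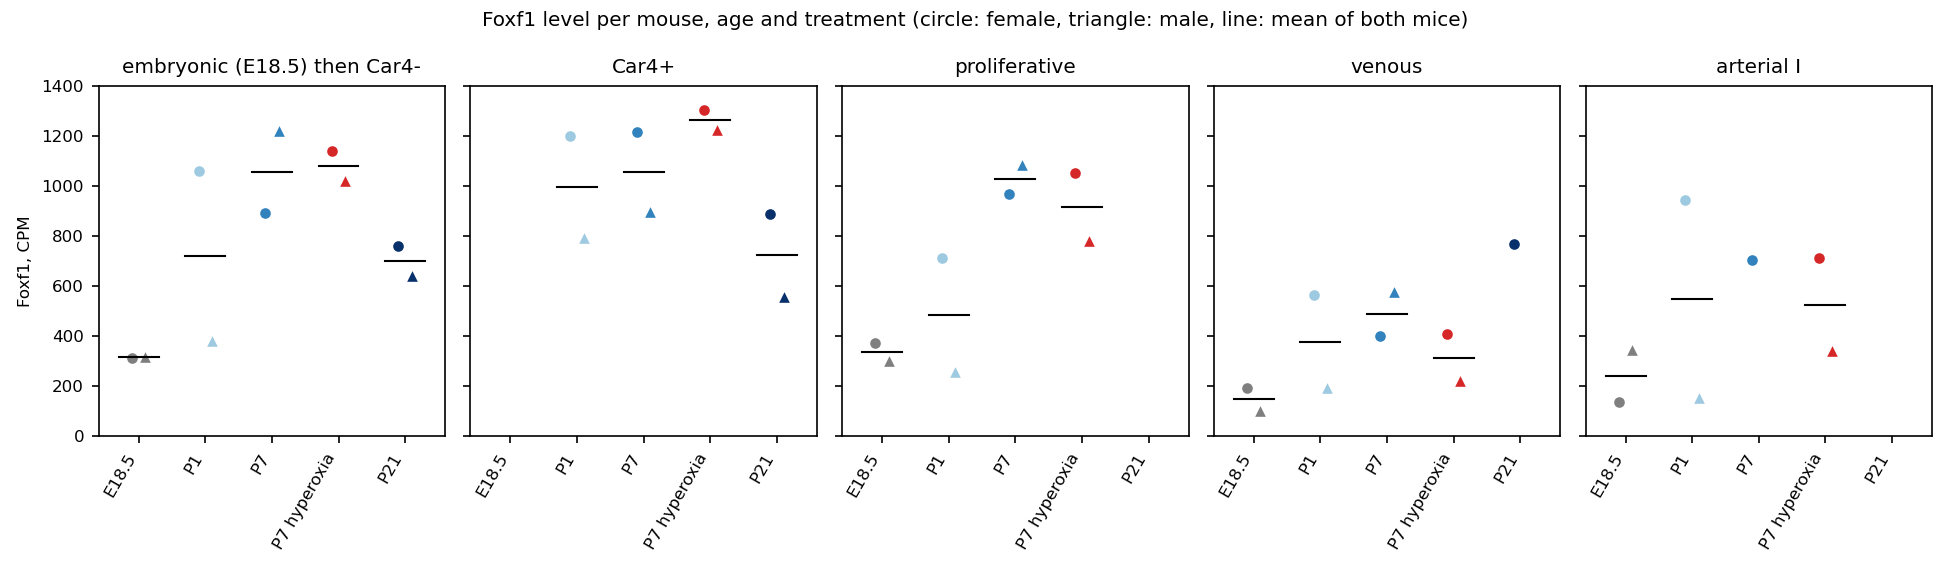
Level of Foxf1 in CPM by group and class, with 1 point per mouse and a line at the mean where both mice have a value. The E18.5 sums shown, which leave out Car4- cells of E18.5, lie between 101 and 373 CPM. The P1 male mouse is lower than the P1 female mouse in each class.

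None of the 10 genes was called by edgeR between ages within a class. The 90 tests of age include P1 against E18.5 in proliferative, venous and arterial I cells. Over them edgeR called 0, DESeq2 3 and limma 0, and 11 had an unadjusted edgeR p under 0.05. For P21 against P7, DESeq2 called Fli1 in Car4- cells (-1.14, adjusted p = 0.0484) and Sox17 in Car4+ cells (-2.94, adjusted p = 0.0381). For P7 against P1 it called Gata2 in proliferative cells (1.64, adjusted p = 0.0337). The background was 0% and 0.266% of genes for P7 against P1 and P21 against P7 in Car4- cells, 0% and 0.00814% in Car4+ cells, 0% for both steps in proliferative cells, 0.0162% and 0% for P1 against E18.5 and P7 against P1 in venous cells, and 0.0293% for P1 against E18.5 in arterial I cells. Fli1 in Car4- cells was 206 and 230 CPM at P7 and 85.8 and 98.1 CPM at P21, with no overlap (-1.12, SE 0.36, edgeR adjusted p = 0.309). In the pair of male mice that shared a run and a gate it was 195 CPM at P7 and 86.7 CPM at P21. The labels within the Car4- class changed with age: at P7 the female and male mice had 162 and 114 early against 44 and 2 late cells, and at P21 they had 4 and 3 early against 268 and 265 late cells. In the P7 female mouse Fli1 was 227 CPM in early and 66.5 CPM in late cells, so age and label cannot be told apart in this difference. Sox17 in Car4+ cells was 67.4 and 207 CPM at P7 and 36.3 and 8.21 CPM at P21 (-2.85, SE 0.87, edgeR adjusted p = 0.858). These sums pooled sort gates: in the male mice, CD31-gate cells of the shared run were 18 of 24 at P7 and 44 of 77 at P21. Median genes per thinned Car4+ cell went from 2208 to 2532 in the female and from 2942 to 1466 in the male mice. In Car4- cells they went from 2032 to 2073 and from 3236 to 1189. The part of gate and of genes found in the Fli1 and Sox17 differences was not tested. The change of Sox17 from P7 to P21 in Car4+ cells differed from that in Car4- cells by -2.38 (SE 0.74), with an edgeR adjusted p of 1.

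Under hyperoxia, Ets1 was lower in Car4- capillary and proliferative cells of both mice, without passing the adjusted threshold. In Car4- cells it was 804 and 544 CPM in the P7 female and male mice in normal air and 344 and 283 CPM in the hyperoxia mice. The groups did not overlap (-1.14, SE 0.36, unadjusted p = 0.00766, edgeR adjusted p = 0.887). In the pair of male mice that shared a run and a gate the levels were 523 and 283 CPM. In proliferative cells it was 727 and 442 CPM in normal air and 250 and 260 CPM under hyperoxia, again with no overlap (-1.21, SE 0.48, edgeR adjusted p = 1). Other genes were set apart as well, also without a call. Mean Gata2 was 322 and 207 CPM in Car4- cells, and mean Sox17 341 and 189 CPM in proliferative cells (normal air, hyperoxia). Tal1 rose from 13.8 to 62.8 CPM in Car4+ cells and fell from 42 to 10.3 CPM in venous cells. With 2 mice in a group, a lack of overlap says little.

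Sox18 in Car4- cells was 261 and 342 CPM in the P7 mice in normal air and 344 and 457 CPM under hyperoxia, and Foxf1 was 893 and 1222 CPM against 1139 and 1019 CPM. The Sox18 groups lay next to each other without overlap (log2 fold change 0.39, SE 0.39, edgeR adjusted p = 1), and those of Foxf1 overlapped (0.00, SE 0.41, edgeR adjusted p = 1). Over the 40 tests of hyperoxia in 4 classes edgeR, DESeq2 and limma each called 0, and 3 had an unadjusted edgeR p under 0.05, against a background of 0.0136% of genes in Car4- cells and 0% in Car4+, proliferative and venous cells. Over the 40 tests of a different change between classes, all 3 tools called 0, and 4 had an unadjusted edgeR p under 0.05. The background there was 0% for hyperoxia in Car4+, venous and proliferative cells against Car4- cells, and 0.0068% for P21 against P7 in Car4+ cells.

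The genes most like each factor over 47 sums of class and mouse were ranked by Pearson's r of log2(CPM + 1) over 9134 genes. Sums of a class or mouse are not independent, and they share libraries and depth, so r is a description. Foxf1 was most like Pcdh1 (r = 0.92), Tspan7 (0.91) and Epas1 (0.91), and over the 43 sums without lymphatic cells these r were 0.80, 0.70 and 0.64. Sox17 was most like Lama5 (0.84, and 0.68 without lymphatic cells), Ace (0.77, and 0.48) and Ablim1 (0.74, and 0.50). Sox7 was most like Cav1 (0.76, and 0.71), Kctd10 (0.75) and Clec14a (0.73). Ets1 was most like Rin2 (0.78), Gata2 most like Fmo1 (0.75), Fli1 most like Ywhah (0.82) and Erg most like Cep350 (0.79). The lead genes of Sox18, Tal1 and Mef2c were Farsa (0.71), Ercc4 (0.73) and Gigyf2 (0.65).

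Among the 10 genes themselves, Gata2 and Foxf1 had r = 0.70 over the 47 sums, and 0.61 without lymphatic cells. Sox17 and Foxf1 had r = 0.61, which was -0.01 without lymphatic cells, and Sox7 and Foxf1 had 0.61, which was 0.25 without them. The neighbours Fli1 and Ets1 had r = 0.10.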

How the data were processed

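Each deposited sample was 1 cell, and the deposited table held whole-number counts per gene and cell without normalization by the authors. Per the submitters' processing notes, STAR 2.5.2b and HTSeq 0.10 were used; the build named there, GRCh38, is a human one, so the mouse build of the counts was not given in the sources used here. Per the labels' protocols, libraries were made in plates with the Tn5 transposase. Positions came from GENCODE M21, and promoters from RefSeq.

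Counts were summed per mouse and class (at least 8 cells), normalized with TMM, filtered with filterByExpr and tested with the quasi-likelihood test of edgeR 4.0.16 (R 4.3.3). P-values were adjusted over all genes of a comparison by the method of Benjamini and Hochberg, with calls below an adjusted p of 0.05. The postnatal model held 37 sums of 8 mice with the mouse as a term; other models held fewer. Each cell was thinned to 50000 reads for shares of cells with a read. The 22 alternatives included DESeq2 1.42.0 and limma 3.58.1 on log2(mean CPM + 1), and those that apply to the postnatal subtypes number 18. Among the 18, each postnatal mouse was left out in turn, also where it held no sum of a compared class. Lymphatic sums came from the P1 female, P1 male and female hyperoxia mice only. Arterial I sums came from these, the P7 female and the male hyperoxia mice. For both classes, counts of kept calls therefore overstate how far the calls were tried. The edgeR test was also run on simulated counts for arterial I against Car4- cells and for hyperoxia in Car4- cells. Those counts held no differences between mice or runs, so they cannot show how the test behaves with such differences. The members, lists and the naming rule (up to 4 called genes per list and comparison, by smallest adjusted p) were chosen with earlier results of these data known.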

Additional observations from a re-analysis of the deposited data

How the results depend on the processing

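The count of tests called among postnatal subtypes was 11, and became 17 with limma and 5 in the normal-air mice alone. At E18.5 it went from 0 to 1 with DESeq2 and to 1 with no filter on low counts. For ages it went from 0 to 3 with DESeq2, to 1 with no filter on low counts and to 1 without the P1 female mouse. No called difference changed sign in the alternatives that apply to it. Mice of the same sex in different groups were not treated as pairs. The deviations of the female mice from their group means in Car4- cells correlated between -0.02 and 0.06 over 6 pairs of groups. Some mice of the same sex shared a run, and this correlation does not show that they share nothing else. With sex as a replicate block, the pairing of mice by sex left the counts for ages, birth and hyperoxia at 0. The postnatal sums held from 9 to 272 cells.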

Other observations

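Arterial II cells had too few cells in most mice to enter the comparisons. In the P1 male mouse, the only one with at least 8 of them (9 cells), Sox17 was 358 CPM, Sox18 324 CPM and Foxf1 74.4 CPM. Proliferative venous cells were labelled in the 2 hyperoxia mice alone, 5 cells each, with Sox17 at 1.76 CPM in the female and 78.1 CPM in the male, and Foxf1 at 313 and 368 CPM. The 13 Car4- cells of the female E18.5 mouse, left out of the comparisons because the male had none, held Foxf1 at 93.4 CPM, Sox17 at 276 CPM and Ets1 at 1165 CPM. They were poor in genes, with a median of 879 per thinned cell against 2552 in the embryonic cells of that mouse. Of them 12 had the late label, where 16.7% of thinned cells had a Foxf1 read, 8.33% a Sox17 read and 58.3% an Ets1 read. Their CPM values thus rest on few cells.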
